A study of Mus musculus with 7 samples.

Results

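A set of 10 genes of actin-linked LIM-domain proteins were followed in mouse ovarian granulosa cells: Fhl1, Fhl2, Fhl3, Pdlim1, Pdlim5, Pdlim7, Csrp1, Csrp2, Lpp and Zyx. They were the 10 rows with these symbols among the 55228 rows of the deposited count table, chosen as actin-linked relatives that could stand in for FHL2, and all 10 were among the 15798 genes with enough reads to test. The libraries came from untreated primary granulosa cells of C57BL/6J mice, 4 from mice labelled wild type (WT) and 3 from mice labelled Fhl2 knockout (Fhl2 KO). The labels give no age, no breeding scheme and no description of the Fhl2 allele, and nothing in them tells if each library was made from its own animal or culture. The p-values therefore measure only the spread between these samples, which may be technical.

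A LIM domain is a zinc-binding fold that serves as a docking surface for other proteins. FHL proteins consist almost wholly of LIM domains and move between actin structures, focal adhesions and the nucleus, where FHL2 binds transcription factors. PDZ-LIM proteins tie alpha-actinin at actin filaments to partner proteins, CSRP proteins bundle actin with alpha-actinin, and zyxin and LPP collect at focal adhesions, where they bring actin assembly factors of the VASP family to sites of strain. Granulosa cells surround the oocyte, and the actin cytoskeleton is known to act on Hippo and YAP signalling in them, which the series title names together with EGF receptor signalling.

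Library totals ran from 38855596 to 50514556 counts, and 3 counts, taken as the floor for counting error alone, equal 0.0594 to 0.0772 CPM, counts scaled to a common library size. Levels below are CPM adjusted by TMM, a method that sets libraries to a common scale, and log2 fold changes are Fhl2 KO over WT with standard errors (SE) on the log2 scale. A gene was called when its edgeR adjusted p, taken over all 15798 genes, lay under 0.05. Long and short transcripts were not represented alike in all libraries. Against the 7-library mean, the slope of log2 CPM on log2 transcript length was 0.0581 to 0.0855 in the WT libraries, and -0.00163, -0.170 and -0.133 in KO libraries 1, 2 and 3. Values after removal of each library's trend on transcript length and GC content are therefore given as corrected values beside the results.

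Marker genes were read beside the members because several LIM proteins are abundant in contractile cells. Granulosa genes were present (Foxl2 at 70.1 CPM and Inha at 1042 CPM in WT), although Cyp19a1, the estradiol-making enzyme, had 0 counts in all 4 WT libraries. Beside the marker calls given here, 15.6% of all genes tested were called lower and 13.5% higher. Of 8 tested granulosa markers, 2 rose and 4 fell. Smooth muscle and pericyte markers summed to 1114 to 1235 CPM in WT and 645 to 733 CPM in KO, mostly from Acta2; 7 of 9 tested fell, none rose with edgeR (0 also at an unadjusted p under 0.05, and 0 with DESeq2 and voom), and Rgs5 had 0 counts everywhere. Fibroblast markers summed to 429 to 499 CPM in WT and 173 to 218 CPM in KO (5 of 7 lower). Ovarian surface epithelium markers summed to 109 to 125 CPM in WT and 138 to 180 CPM in KO (3 of 6 higher). Of theca markers 2 of 4 rose and 1 fell, with Insl3 and Cyp17a1 near 0, and of oocyte markers 1 of 6 fell. Both tested lung epithelium markers rose, from a sum of at most 0.155 CPM in WT to between 0.878 and 24.8 CPM in KO. Endothelium (at most 2.13 CPM) and white blood cell markers (at most 22.8 CPM) had no call among 3 tested genes each with edgeR, also at an unadjusted p under 0.05 and with DESeq2 and voom. The part of these cells in the results below was not tested, and in bulk samples fewer cells of a type and less RNA per cell cannot be told apart.

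Of the 10 genes, 4 were lower in Fhl2 KO, the targeted Fhl2 among them, and 1 was higher. Besides Fhl2, these were Pdlim1 and Pdlim5, scaffolds of alpha-actinin, and Lpp, a focal adhesion protein, whereas zyxin (Zyx), a relative of LPP, rose. Across all genes tested, 15.6% were called lower, 13.5% higher and 29.0% in either direction, beside 5 of the 10 members, or 4 of the 9 without Fhl2, whose change the design sets. The median log2 fold change of the 10 was -0.16, beside -0.000184 for all genes tested. Every KO library lay below every WT library for 5 members (Fhl1, Fhl2, Pdlim1, Pdlim5 and Lpp) and above for Zyx, beside 17.7% and 16.4% of all genes tested and 34.2% in either direction, and the groups overlapped for the other 4.

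**Figure D1:**
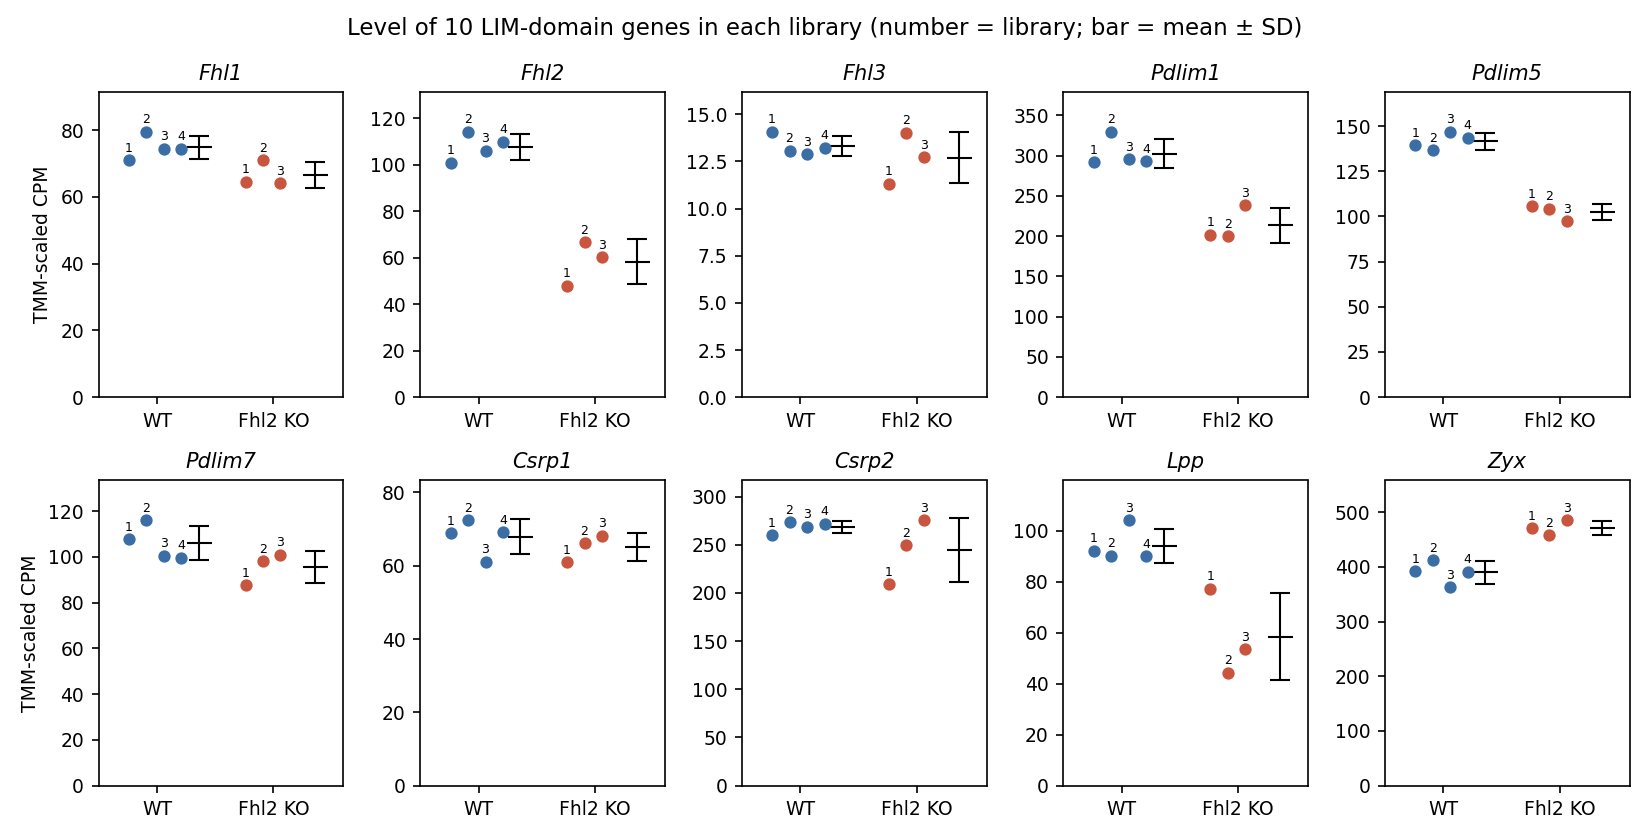
Levels of the 10 genes in TMM-scaled CPM (vertical axes, each starting at 0) in the 4 WT and 3 Fhl2 KO libraries; numbered points are libraries and the bars beside them mean ± SD. The KO points of Fhl2, Pdlim1, Pdlim5, Lpp and Fhl1 sit below all WT points, those of Zyx above, and KO library 1 stands apart from the other KO libraries for Lpp.

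Levels of different genes were compared per kilobase of exon. In WT, Csrp2 was the highest of the 10 at 123.7 ± 2.86 CPM per kb (SD, n = 4), followed by Zyx at 72.3 ± 3.79. Pdlim1 (57.5 ± 3.43) and Fhl2 (56.8 ± 2.97) came next and did not differ beyond their spread. Csrp1 stood at 34.7 ± 2.44, and Pdlim7 (21.9 ± 1.56) and Fhl1 (20.1 ± 0.941) were again within their spread of each other. Pdlim5 (15.9 ± 0.512), Fhl3 (7.91 ± 0.313) and Lpp (4.28 ± 0.304) closed the order. Fhl2 thus ranked the fourth of the 10 in WT, above 93.8% of the genes tested, and the lowest, Lpp, was above 52.5% of them. In KO, Fhl2 at 30.8 ± 5.05 CPM per kb (SD, n = 3) ranked below Csrp1 (33.3 ± 1.90), within the spread, and the order of the other 8 was that of WT. With the longest transcript as the length, Pdlim5 and Fhl1 changed places in the WT order. Pdlim1 (106.7 CPM per kb) then lay well above Fhl2 (68.9), so their like level holds only for the exon length used above.

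The FHL genes were examined first, since one of them was the target. Fhl2 lies on the minus strand of chromosome 1 (43123074 to 43196984, GENCODE M21 on mm10), Fhl1 on the plus strand of chromosome X (56731787 to 56793346) and Fhl3 on the plus strand of chromosome 4 (124700701 to 124708611). RefSeq promoter windows of build GRCm38.p6, which reach from 250 bases before to 50 bases after a start, were found for 9 of the 10 genes (14 windows; Csrp2 had none). The CArG box, the motif of serum response factor (SRF), was searched on both strands as the exact letters CCWWWWWWGG, with W for A or T. Variants of these letters and sites outside the windows were not searched. A match was in both Fhl2 windows and in 1 of the 2 Fhl1 windows, and in no window of the other 7 genes. Of all 32851 windows 1.63% had a match, and of the 14031 windows of genes tested 180 did. The TEAD letters CATTCC or GGAATG (14.7% of all windows) were in 1 Lpp window, and the AP-1 letters TGACTCA or TGAGTCA (5.2%) in the Zyx window. By the exact CArG letters in these windows, Fhl1 and Fhl2 stood apart from the other members with a window. Their sequences are therefore shown 5′ to 3′ on the gene's strand, with the CArG box in capitals. The 130 bases before the start are given, or 30 bases around the match where annotated exons cover it.
Fhl2, first start, chr1:43196838-43196867 (minus strand), match beginning 96 bases before the start: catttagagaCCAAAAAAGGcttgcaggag
Fhl2, internal start, chr1:43163962-43164091 (minus strand), match beginning 31 bases before the start: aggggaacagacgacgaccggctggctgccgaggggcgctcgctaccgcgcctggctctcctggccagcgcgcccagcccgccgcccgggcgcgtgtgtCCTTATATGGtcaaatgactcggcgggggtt
Fhl1, chrX:56779553-56779682 (plus strand), match beginning 102 bases before the start: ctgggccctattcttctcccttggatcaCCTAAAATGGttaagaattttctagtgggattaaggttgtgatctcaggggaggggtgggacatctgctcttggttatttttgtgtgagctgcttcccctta
The 30 bases shown at the first Fhl2 start lie wholly in annotated exons, and GENCODE places the 5′ end of Fhl2 further upstream, at 43196984. A match describes the letters only, and counts per gene do not show which start the reads came from.

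Fhl2 stood at 101.0, 114.2, 106.0 and 109.9 CPM in WT libraries 1 to 4 and at 47.9, 66.8 and 60.4 CPM in KO libraries 1 to 3. All KO libraries were lower, KO library 1 the lowest, yet each kept between 1880 and 3132 reads of the gene, and counts summed over a gene cannot tell whether these reads cover the altered part. The log2 fold change was -0.88 (SE 0.107, edgeR adjusted p = 3.29e-05; corrected -1.07). Fhl1, a relative most abundant in skeletal and heart muscle, was at 71.0, 79.5, 74.4 and 74.5 CPM in WT and at 64.5, 70.9 and 64.1 CPM in KO. KO library 2 lay just under the lowest WT library, and the change did not pass the test (-0.17, SE 0.0875, edgeR adjusted p = 0.155). Fhl3, also a muscle LIM protein, was low at 13.3 ± 0.527 CPM in WT and 12.7 ± 1.35 in KO, with overlapping groups and a difference of -0.07 (SE 0.112, edgeR adjusted p = 0.695). With the correction for length and GC content Fhl3 passed as lower (-0.29, edgeR adjusted p = 0.0372; 0.0372 to 0.918 over its alternatives). Fhl4 was near the floor at 0.155 to 0.321 CPM in WT and 0.178 to 0.426 CPM in KO, and Fhl5 had 0 counts in all libraries.

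No FHL relative was called higher by edgeR, DESeq2 or voom, and at an unadjusted edgeR p under 0.05 the number was also 0. The 95% interval of the log2 difference was -0.34 to 0.00 for Fhl1 and -0.29 to 0.15 for Fhl3. Fhl1 to Fhl4 summed to 84.9 ± 3.67 CPM per kb over the 4 WT libraries (SD) and to 56.3 ± 6.67 over the 3 KO libraries. Within that sum Fhl2 held 66.9 ± 0.683% in WT and 54.4 ± 2.86% in KO, and remained the most abundant FHL transcript in each KO library (51.1, 56.1 and 56.1%). The KO minus WT difference was -26.0 CPM per kb for Fhl2, -2.24 for Fhl1 and -0.368 for Fhl3. Fhl1 per Fhl2 was 0.346 to 0.359 in the WT libraries and 0.688, 0.543 and 0.542 in KO libraries 1 to 3. Fhl3 per Fhl2 went from 0.129 to 0.157 in WT to 0.237 to 0.266 in KO. The fall of Fhl2, the denominator, sets the rise of both ratios, as neither Fhl1 nor Fhl3 rose.

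**Figure D2:**
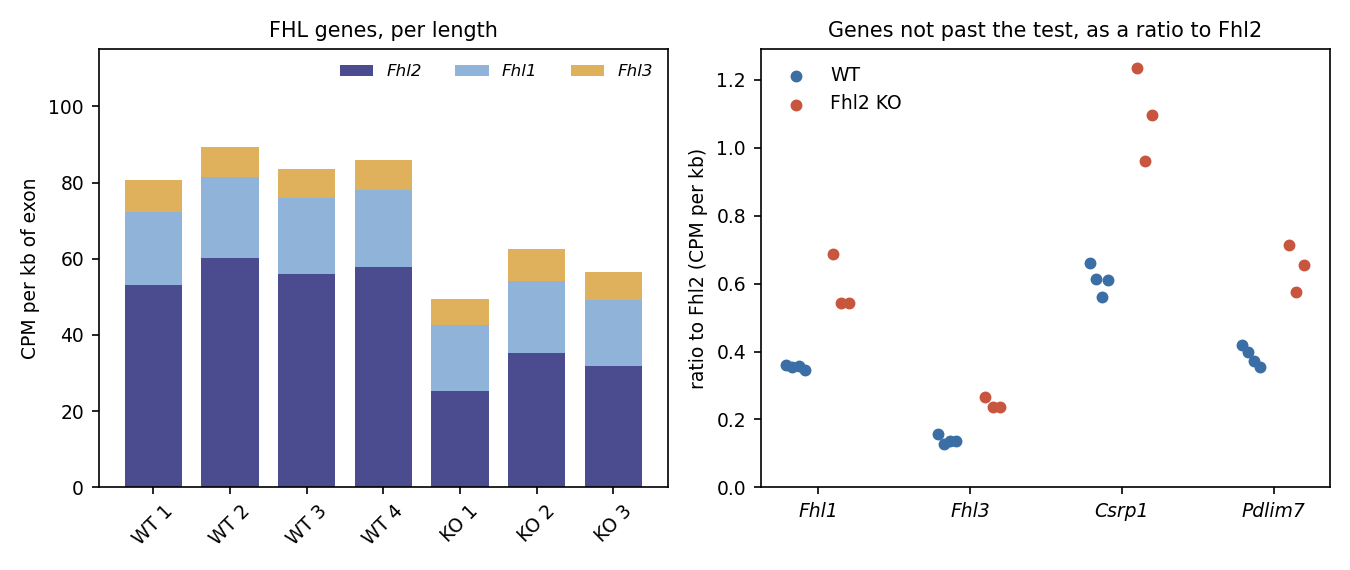
Left, stacked bars of Fhl2, Fhl1 and Fhl3 in CPM per kb of exon in each library, with Fhl4 too low to draw; right, the ratio of 4 genes to Fhl2 in CPM per kb, 1 point per library. The Fhl2 part of the bars shrinks in KO while Fhl1 and Fhl3 stay near their WT height, and the KO ratios lie above the WT ratios for each of the 4 genes. The 4 genes are among those not past the test, so the fall of Fhl2, the denominator, sets this rise.

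Of the 3 PDZ-LIM members, the 2 called genes were both lower. Pdlim1 (CLP36, which links alpha-actinin to stress fibres; chromosome 19, 40221173 to 40271842) was at 292.2, 329.6, 295.7 and 292.9 CPM in WT and at 202.0, 200.2 and 238.1 CPM in KO. No KO library reached the WT range, and the fall to 70.5% of WT (log2 fold change -0.50, SE 0.0935, edgeR adjusted p = 0.00139) was of the same size after correction (-0.52). Pdlim5 (ENH, which binds alpha-actinin and protein kinase C; chromosome 3, 142239590 to 142395696) was at 139.3, 136.5, 146.8 and 143.5 CPM in WT and at 105.8, 104.3 and 97.3 CPM in KO. The KO libraries were close together and well under WT (-0.47, SE 0.0846, edgeR adjusted p = 0.00120). The corrected fall of Pdlim5 was smaller, -0.24 (edgeR adjusted p = 0.0113; 2.66e-06 to 0.0650 over its alternatives). Pdlim7 (Enigma, known from bone and muscle; chromosome 13, 55495795 to 55513676) was at 99.7 to 116.0 CPM in WT and 87.5 to 100.9 CPM in KO, with overlapping groups, and did not pass (-0.15, SE 0.0916, edgeR adjusted p = 0.233).

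The rest of that family moved in both directions. Of 7 tested PDZ-LIM genes, 3 fell and 2 rose, beside 15.6% and 13.5% of all genes tested. Pdlim4 (RIL), which binds alpha-actinin and was the largest rise among all LIM lists, was at 18.4, 18.4, 20.1 and 17.6 CPM in WT and at 37.3, 49.2 and 48.0 CPM in KO. Its KO libraries lay far above WT, a 2.41-fold rise (log2 fold change 1.27, SE 0.107, edgeR adjusted p = 7.06e-07; corrected 1.01). Pdlim2 (mystique), named after its value was seen, rose from 7.25 ± 0.742 to 10.5 ± 1.34 CPM (edgeR adjusted p = 0.00723). The summed level of the family was 103.3 to 113.1 CPM per kb in the WT libraries and 86.9 to 99.6 CPM per kb in KO. Ldb3 (Cypher), a Z-disc protein of striated muscle, fell to 8.95 ± 1.05 CPM in KO, from 12.4 to 13.7 CPM in the WT libraries (edgeR adjusted p = 0.00412). The corrected fall was -0.31 (edgeR adjusted p = 0.0301). The call of Ldb3 was lost for KO library 1 alone against WT (edgeR adjusted p = 0.192, the highest of 4.00e-04 to 0.192 over its alternatives).

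Neither CSRP member passed as counted. Csrp1 (chromosome 1, 135720061 to 135752232), a smooth muscle actin bundler, was at 68.9, 72.4, 61.1 and 69.1 CPM in WT and 61.0, 66.2 and 68.2 CPM in KO, and the groups overlapped almost fully (-0.06, SE 0.0911, edgeR adjusted p = 0.665). Csrp2 (chromosome 10, 110919789 to 110939622), known from vascular smooth muscle and stellate cells, was tight in WT at 259.8, 273.7, 268.7 and 272.0 CPM. It spread from 209.4 CPM in KO library 1 through 249.7 in KO library 2 to 275.4 CPM in KO library 3 (-0.13, SE 0.0963, edgeR adjusted p = 0.318). Both are short transcripts and passed as lower once length and GC content were corrected. The corrected change was -0.25 for Csrp1 (edgeR adjusted p = 0.0151; 0.0151 to 0.971 over its alternatives) and -0.39 for Csrp2 (8.82e-04; 8.82e-04 to 0.913). As counted, the change of Csrp2 was -0.36 for KO library 1 alone, its lowest KO library. Without that library it was -0.01 (edgeR adjusted p = 0.913). Of 5 tested CSRP and CRIP genes, none was called by edgeR as counted, 1 lay at an unadjusted p under 0.05, and DESeq2 and voom each called 1 as higher. The gene at an unadjusted p under 0.05, named after its value was seen, was Crip2 (0.27, edgeR adjusted p = 0.0582; corrected 0.03).

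Zyxin and LPP, both focal adhesion scaffolds that bind VASP and alpha-actinin, moved in opposite directions. Zyx (chromosome 6, plus strand, 42349630 to 42360213) was at 392.3, 412.6, 362.9 and 390.9 CPM in WT and at 470.2, 457.8 and 485.0 CPM in KO. Each KO library exceeded each WT library, for a 1.21-fold rise (log2 fold change 0.27, SE 0.0852, edgeR adjusted p = 0.0240; corrected 0.21, 0.0225). The size held but the call did not: edgeR adjusted p was 0.0567 without WT library 1, 0.0769 without WT library 3, 0.0708 without WT library 4, 0.0958 without KO library 3 and 0.0803 for KO library 1 alone, within 0.00322 to 0.123 over its alternatives. Exons of Epha1 on the opposite strand overlap 4.38% of the Zyx exon bases, and Epha1 had 28 to 44 reads per library beside 15193 to 22084 for Zyx. Lpp (chromosome 16, plus strand, 24393507 to 24992578) was at 92.3, 90.3, 104.2 and 90.2 CPM in WT and at 77.4, 44.3 and 53.5 CPM in KO. All KO libraries were lower, but KO library 1 lay much nearer to WT than the other two (-0.69, SE 0.156, edgeR adjusted p = 0.00813).

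The fall of Lpp was the member result that depended most on transcript length. Its longest annotated transcript has 15459 bases, in the longest of 10 equal length bins of the genes tested, a bin with 46.7% of its genes called lower and a median of -0.38 on the log2 scale. After the correction the change was -0.18 (edgeR adjusted p = 0.0737), and per library -0.04, -0.30 and -0.22 in KO libraries 1 to 3, relative to WT libraries between -0.04 and 0.02. The call was also lost without KO library 3 (-0.63, edgeR adjusted p = 0.0590), for KO library 1 alone (-0.29, 0.123) and with length alone corrected (-0.19, 0.0898), with 1.53e-09 to 0.150 over all alternatives. Zyx per Lpp rose from 14.2 to 18.7 in the WT libraries to 24.8, 42.3 and 37.1 in KO libraries 1 to 3, a ratio that carries the same length trend.

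**Figure D3:**
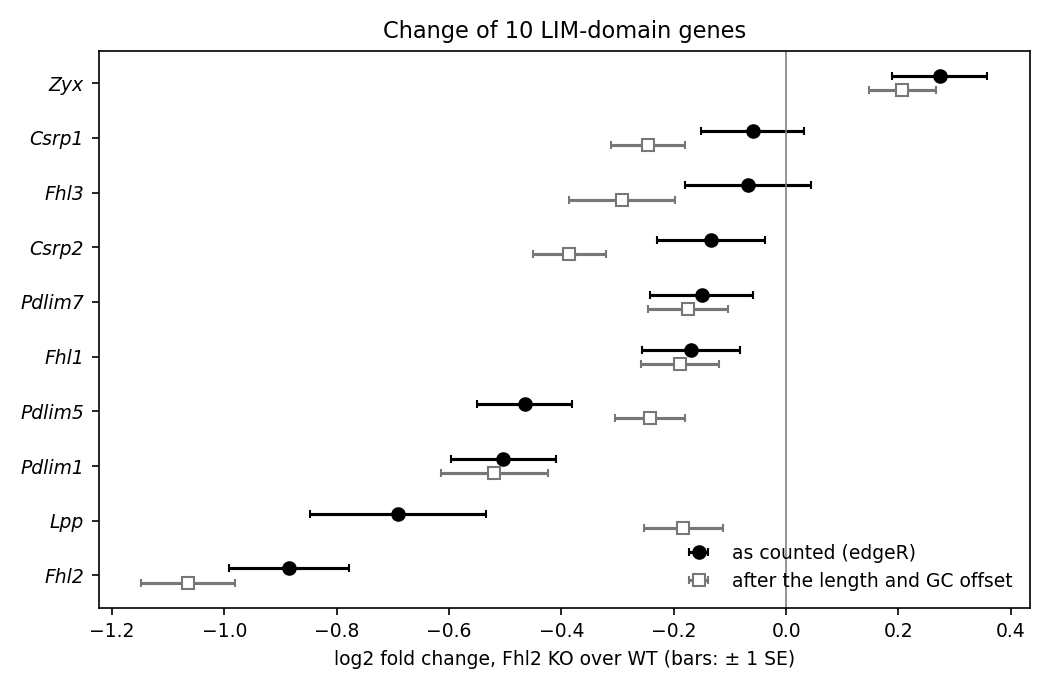
Log2 fold change (Fhl2 KO over WT, horizontal axis, bars ± 1 SE) of the 10 genes as counted (filled circles) and after removal of each library's trend on transcript length and GC content (open squares). Lpp and Pdlim5 move towards 0, Csrp1, Csrp2 and Fhl3 move away from it, and Zyx alone stays above 0.

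With the correction, 6 members were called lower (Fhl2, Fhl3, Pdlim1, Pdlim5, Csrp1 and Csrp2) and 1 higher (Zyx). Beside these were 11.2% and 12.2% of all genes tested and 23.4% in either direction. With length alone corrected, 4 members were called lower and 1 higher, beside 3185 calls over all genes. Fhl3 (edgeR adjusted p = 0.111) and Csrp1 (0.0728) then did not pass. With the replicate number as a block and the correction, 3 were called lower and 0 higher, beside 2433 calls over all genes. In corrected values every KO library lay below every WT library for the 9 genes other than Zyx, beside 14.9% of all genes tested, and above for Zyx, beside 15.5%. For Lpp the gap was narrow, from -0.043 in KO library 1 to -0.038 in WT library 4 on the log2 scale. Together the 9 members without Fhl2 summed to 348.2 to 374.9 CPM per kb in the WT libraries and to 310.9, 333.3 and 356.0 CPM per kb in KO libraries 1 to 3. The groups overlapped only through KO library 3. Zyx made up 17.4 ± 0.536% of the 10-gene sum in WT (SD, n = 4) and 24.1 ± 1.63% in KO (SD, n = 3). Zyx itself rose from 72.3 to 87.4 CPM per kb. The 10-gene sum, with Fhl2 in it, was lower in KO, at 415.2 ± 14.1 CPM per kb in WT and 364.2 ± 26.1 CPM per kb in KO. Both changes enter the rise of the Zyx share.

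Other actin-linked LIM genes were read from lists by family. Beyond the 10 members, 33 of 39 listed genes were tested: 5 rose, 7 fell and 21 did not pass, beside 13.5% and 15.6% of all genes, with a median log2 fold change of 0.02. With the correction, 3 rose and 6 fell. Of 7 tested zyxin family genes, 3 rose and 2 fell as counted, and 1 rose and 1 fell with the correction. Trip6, a zyxin relative at adhesions, rose from 52.2 ± 1.96 to 66.6 ± 8.18 CPM (edgeR adjusted p = 0.0127), and Wtip, named after its value was seen, passed narrowly (0.31, edgeR adjusted p = 0.0482). The call of Wtip, whose groups overlapped, was lost after the correction (0.20, edgeR adjusted p = 0.116). The call of Trip6 was lost after the correction (0.18, edgeR adjusted p = 0.107), without KO library 2 (0.0566), without KO library 3 (0.0652) and for KO library 1 alone (0.489, the highest of its alternatives, which began at 1.56e-04). Fblim1 (migfilin), which links filamin to adhesions, fell from 8.46 ± 0.481 CPM to 6.96, 6.44 and 4.77 CPM in KO libraries 1 to 3 (edgeR adjusted p = 0.0198). Its call was lost without WT library 1 (0.0647), without KO library 3 (0.127) and for KO library 1 alone (0.413), within 0.00197 to 0.413 over its alternatives. Among paxillin and PINCH genes, 1 of 5 was called, Tgfb1i1 (Hic-5), a paxillin relative, which also passed with the correction (0.32, edgeR adjusted p = 0.00396). As counted it was higher by 0.24 (SE 0.0845, edgeR adjusted p = 0.0417). That call ended on leaving out any WT library, KO library 2 or KO library 3, and for KO library 1 alone, within 0.00396 to 0.230 over its alternatives.

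Among the remaining actin-linked LIM genes, 5 of 15 tested fell and none rose, beside 15.6% lower and 13.5% higher of all genes tested. At an unadjusted edgeR p under 0.05, 1 was higher, and DESeq2 and voom each called 1 higher. With the correction 4 fell and 0 rose, beside 11.2% and 12.2% of all genes tested, and the median was -0.09. Limch1, which activates non-muscle myosin, was at 14.0, 12.3, 14.2 and 14.7 CPM in WT and at 9.33, 5.52 and 6.94 CPM in KO (-0.93, SE 0.153, edgeR adjusted p = 5.84e-04; corrected -0.65). Its KO libraries lay clear of WT. Lima1 (EPLIN), which stabilizes actin filaments, fell by 0.67 (SE 0.143, edgeR adjusted p = 0.00504), and Tes (testin), a zyxin-binding adhesion protein, fell by 0.44 (SE 0.0916, 0.00271). Mical2, an enzyme that oxidizes actin, fell by 0.43 (SE 0.103, 0.00619; corrected -0.15, edgeR adjusted p = 0.0907, within 9.95e-05 to 0.238). The calls of Lima1 (edgeR adjusted p = 0.123, within 5.34e-09 to 0.123) and Mical2 (0.180) were lost for KO library 1 alone. The other gene that fell, named after its value was seen, was Lmo7 (-0.58, edgeR adjusted p = 0.0142; corrected -0.26, edgeR adjusted p = 0.311).

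**Figure D4:**
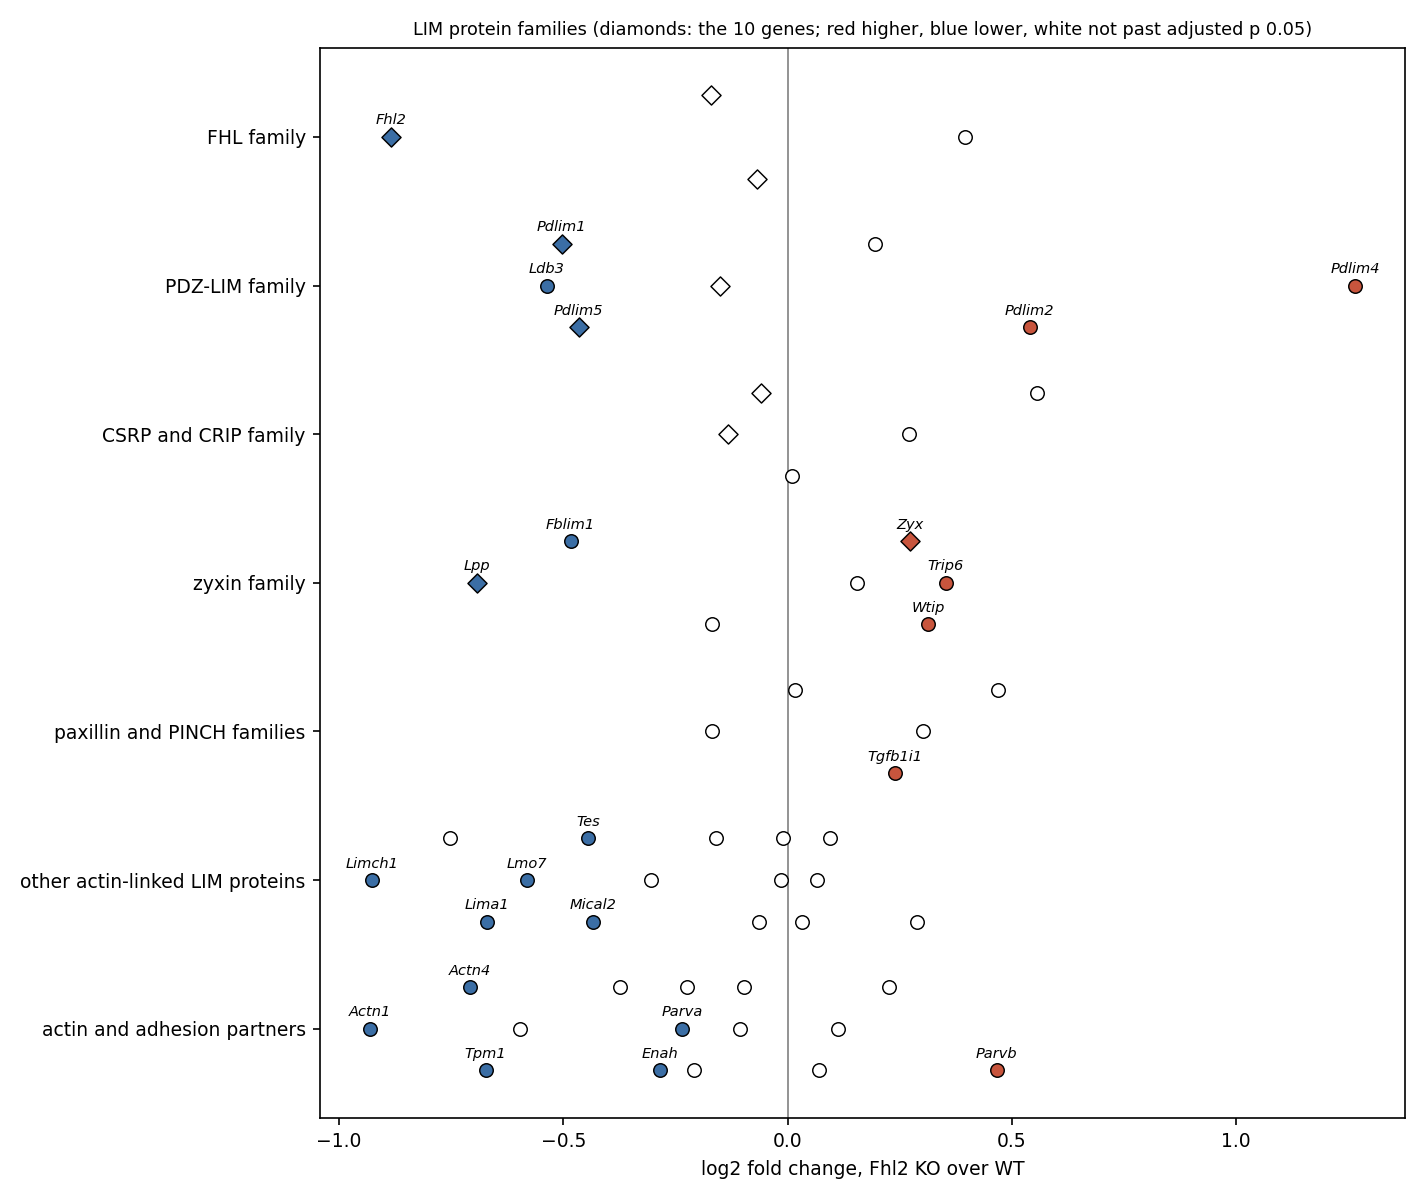
Log2 fold change (Fhl2 KO over WT, horizontal axis) of the tested genes in 6 LIM protein lists and a list of actin and adhesion partners, 1 symbol per gene; diamonds are the 10 members, and filled symbols passed edgeR adjusted p 0.05. Calls fall on both sides of 0 in the PDZ-LIM and zyxin families, and only below 0 in the list of other actin-linked LIM proteins.

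A list of actin and adhesion genes, read as partners of these proteins, included larger falls than most members. Of 15 tested actin and adhesion partners, 5 fell and 1 rose, beside 15.6% and 13.5% of all genes tested, with a median of -0.23. With the correction 5 fell and 2 rose, beside 11.2% and 12.2% of all genes tested, and the median was -0.10. Actn1, the alpha-actinin that PDZ-LIM, CSRP and zyxin proteins bind, was at 393.8, 361.6, 370.5 and 391.6 CPM in WT and at 253.3, 156.2 and 187.3 CPM in KO. All KO libraries were lower, KO library 1 least so (-0.93, SE 0.131, edgeR adjusted p = 2.94e-04; corrected -0.91). Actn4, a related alpha-actinin, fell by 0.71 (SE 0.129, edgeR adjusted p = 0.00169; corrected -0.70), and the tropomyosin Tpm1 fell by 0.67 (SE 0.0936, 1.23e-04; corrected -0.68). The other 2 that fell, named after their values were seen, were Enah, a VASP relative (-0.28, edgeR adjusted p = 0.0460), and Parva, a parvin (-0.23, 0.04998). The correction turned Enah to higher (0.19, edgeR adjusted p = 0.0367) and ended the call of Parva (0.06, 0.526). Parvb, an adhesion protein that binds alpha-actinin, rose from 12.3 ± 1.57 to 17.0 ± 0.472 CPM (edgeR adjusted p = 0.00787), a call lost for KO library 1 alone (0.0692, within 0.00199 to 0.0692). Without KO library 2 or 3, or with KO library 1 alone, the falls of Actn1, Actn4 and Tpm1 remained past the threshold. Of SRF and its coactivators, Myocd (-0.59, edgeR adjusted p = 0.0160) and Mrtfa (-0.37, 0.0449) were lower and Srf was not past the threshold (0.28, 0.0520). The Myocd call was lost for KO library 1 alone (edgeR adjusted p = 0.504, within 8.22e-06 to 0.504) and without KO library 3 (0.0975). The Mrtfa call was lost for KO library 1 alone (0.939, within 1.89e-04 to 0.939) and on leaving out any library other than KO library 1.

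Finally, the genes whose profile over the 7 libraries lay nearest to that of Fhl2 were listed, by the root mean square difference of log2 CPM centred on each gene's mean. Of 12795 candidates with a mean of at least 1 CPM, the nearest were Nnt, a mitochondrial transhydrogenase gene known to differ between C57BL/6 substrains (difference 0.103), Acta2, smooth muscle actin (0.107), Tspan2, a tetraspanin (0.117), Rarres2, which encodes chemerin (0.125), and Hnrnpa3, an RNA-binding protein (0.126). Acta2 was at 880.4, 932.6, 840.3 and 875.0 CPM in WT and at 449.3, 492.6 and 530.1 CPM in KO, a step of nearly the size of that of Fhl2 (-0.85, SE 0.0916, edgeR adjusted p = 8.78e-06). The likeness was measured over the same libraries, in which the Fhl2 profile is mainly the step that the design sets. A like step and a small p in the genes nearest to it thus follow from how they were picked. Among the other members, Pdlim1 (0.241, rank 144) and Pdlim5 (0.267, rank 271) lay nearest to Fhl2 by this measure and Zyx farthest (0.598, rank 9987). Fhl1 ranked 2209, and Lpp, in spite of its fall, 2093.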

How the data were processed

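Total RNA of 7 libraries was extracted with TRIzol and made into libraries by a stranded mRNA kit, per the labels' protocols. The submitters' processing notes list mm10 as the build, and as tools HISAT2 2.2.1, SAMtools, fastp, Cufflinks 2.2.1, DESeq2 1.28.1 and featureCounts 1.6.4. Their roles, the annotation and how strand was handled were not given in the sources used here. The values deposited by the authors were whole-number read counts per gene symbol, not normalized. The series text speaks of 5 samples, whereas 7 libraries carry labels and counts.

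Groups came from the sample titles. The main test was edgeR 4.0.16 in R 4.3.3 (filterByExpr with a minimum count of 10, TMM, robust glmQLFit and glmQLFTest; genotype as the only term) with Benjamini-Hochberg adjustment over all genes tested, which held 99.9% of the counts. Lengths and GC content came from GENCODE M21, with the union of exons for levels per kilobase and the longest transcript for the correction; 98.6% of genes tested had them. For the correction, the dependence of log2 CPM on length and GC content was fitted in each library with natural splines (4 degrees of freedom, genes above 1 CPM) and passed to edgeR as an offset. Alternatives were DESeq2 1.42.0, limma 3.58.1 voom with quality weights, other scalings and filters, the replicate number as a block, length alone, each library left out, and KO library 1 alone, where the lone library was assumed to vary like WT. The steps were also run on simulated counts that gave all genes and libraries the same spread, a simpler setting than these data. No pair of libraries in a group was duplicated (chi-square per degree of freedom at least 9.73).

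The members and lists were chosen with earlier results of these data known. Named were all members, Fhl4 and Fhl5, up to 4 called genes per list by smallest p, a gene called alone in its direction, and the 5 genes most like Fhl2. A gene of the lists is not reported here.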

Additional observations from a re-analysis of the deposited data

Results flagged for a closer look

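In 3 of the 34 genes screened, 1 of the 4 WT libraries stood apart from the others by more than Dixon's 95% critical value, which chance alone passes in about 1 of 20 groups. Pdlim1 was at 329.6 CPM in WT library 2 and between 292.2 and 295.7 CPM in the other WT libraries. Lpp was at 104.2 CPM in WT library 3 and between 90.2 and 92.3 CPM in the others. Lima1 was at 87.5 CPM in WT library 2 and between 96.7 and 98.3 CPM in the others.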

How the results depend on the processing

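Of 200 values of the 10 members under alternative settings, 178 kept their direction and their side of the threshold, 14 lost the call, 6 gained it and 2 turned sign. The unblocked fit of the 6 libraries used for the block is the same fit as that without WT library 4, and its values are counted under both settings. The sign turned without KO library 1 for Fhl3 and Csrp1, neither of which was called: with a library left out they ranged from -0.14 to 0.028 and from -0.11 to 0.00494. Fhl4 turned to -0.51 for KO library 1 alone. Foxo1 turned to 0.13 with the length and GC offset, to 0.098 with the length offset and to 0.13 with block and offset. Members called higher went from 1 to 0 with the replicate block, in the same 6 libraries without it, in the block with offset and for KO library 1 alone. With a library left out, 3 to 4 members were called lower and 0 to 1 higher.

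Over all genes, 4588 calls became 2960 in the same 6 libraries unblocked, 3301 with the replicate block, 2433 with block and offset, 781 for KO library 1 alone, and 1657 (without KO library 3) to 6740 (without KO library 1) with a library left out. Same-numbered libraries did not deviate together (correlations 0.0326, -0.00130 and -0.0324), so the numbers were not taken as a pairing. Pdlim5 lost its call only with block and offset (edgeR adjusted p = 0.0650), Ldb3 lost it there too (-0.29, 0.126), and Zyx lost it with the block (0.123). Of LIM genes beyond the members, those lower went from 7 to 11 with voom, 2 for KO library 1 alone and 5 to 11 with a library left out. Those higher went from 5 to 3 with the block, in the same 6 libraries and with either offset, to 2 with block and offset, to 1 for KO library 1 alone, and to 2 to 8 with a library left out. The causes were not tested.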

Other observations

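Transcription factors known to bind FHL2 were read as a separate list. Of 7 tested, 1 rose and 2 fell, beside 13.5% and 15.6% of all genes tested, with a median log2 fold change of -0.07. With the correction for length and GC, 1 rose and 1 fell and the median was 0.13. Ctnnb1, which encodes beta-catenin, was at 642.9, 705.7, 682.6 and 642.3 CPM in WT and at 848.4, 835.3 and 923.3 CPM in KO (0.38, SE 0.0867, edgeR adjusted p = 0.00501). All KO libraries lay above WT. The AP-1 gene Fos fell by 0.35 (edgeR adjusted p = 0.0241), a call lost without WT library 2 (0.0689) or 4 (0.0927), without KO library 3 (0.161) and for KO library 1 alone (0.319), within 8.60e-04 to 0.319 over its alternatives. Foxo1, a FOXO factor of follicle cells, was lower by -0.29 as counted (edgeR adjusted p = 0.0181) and turned to 0.13, which did not pass, once length and GC content were corrected (edgeR adjusted p = 0.214, within 8.00e-04 to 0.409 over its alternatives).

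In a list of nuclear LIM-only and LIM-homeodomain genes and their LIM-binding cofactors, none of 6 tested was called by edgeR (0 at an unadjusted p under 0.05, 0 by DESeq2 and 1 lower by voom). With the correction edgeR called 1 lower, Lmo4, a LIM-only protein named after its value was seen (-0.32, edgeR adjusted p = 0.0389, beside -0.19 and 0.191 as counted). The most abundant of them was Ldb1, a LIM-binding cofactor, at 109.2 ± 2.76 CPM in WT (SD, n = 4), named after its value was seen.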
